A study of Mus musculus with 2 samples.

Results

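The genes examined here encode the extracellular and proximal parts of the Wnt pathway, namely the Wnt ligands, their Frizzled receptors and co-receptors, the secreted antagonists, the R-spondins with their Lgr receptors, and the first intracellular and nuclear components. They were chosen by gene symbol alone, as probe sets named for a Wnt, Frizzled, Sfrp, Dkk, R-spondin or Axin gene or for a fixed set of further pathway genes such as *Ror2*, *Lgr5* and *Tcf7*, a rule that uses no measured value, although it was proposed with earlier results of these data known. This gave 130 of 45101 probe sets and 64 of 20706 genes. RNA came from 2 clonal lines of mouse bone marrow stromal cells that had become immortal on their own, BMSC-Adipo (labelled mMSC-Adipo) and BMSC-Osteo (labelled mMSC-Bone), and was hybridised to Affymetrix expression arrays. Both lines carry a C57BL/6 background and the genotype given as Beta-actin-GFP+ ApoE(-/-). Both grew undifferentiated in basal medium with 12% FBS according to the labels (the methods of the study give another percentage), and no treatment was applied. Each line is a single clone represented by 1 array, and each array holds RNA pooled from 3 cultures. Differences between the lines, the clones and the arrays therefore cannot be told apart, and no spread between samples, error or p-value could be computed.

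Wnt proteins are lipid-modified secreted ligands that bind Frizzled receptors together with the co-receptors Lrp5 and Lrp6. In the canonical branch this stops the destruction complex around Axin from degrading beta-catenin, which then enters the nucleus and works with TCF/LEF factors, while other Wnts act through receptors such as Ror2 without beta-catenin. In bone marrow stroma, canonical Wnt signaling is known to favor osteoblast over adipocyte differentiation, and Wnt10b is a classical ligand in that role. Secreted proteins tune the pathway at the cell surface. Sfrp proteins and Wif1 bind Wnts, Dkk1 and Dkk2 bind Lrp5 and Lrp6, and R-spondins bound to Lgr receptors protect Frizzleds from the ubiquitin ligases Znrf3 and Rnf43.

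The deposited values are log2 levels made by robust multiarray averaging (RMA), which puts both arrays on a common scale. A difference is the log2 level in BMSC-Adipo minus the level in BMSC-Osteo, so that positive values mean a higher level in BMSC-Adipo and a difference of 1 is 2-fold. The fold change column of the deposited table runs the opposite way. The value of a gene is that of its brightest probe set, meaning the highest mean over both arrays. Genes were counted where that mean reached a log2 level of 4.20, the 30th percentile of all genes, which 54 of the 64 members did. The 10 dimmer members were *Wnt1*, *Wnt2*, *Wnt2b*, *Wnt3*, *Wnt8a*, *Wnt8b*, *Dkk1*, *Dkk4*, *Sost* and *Rspo4*. Their differences lay between -0.69 and 0.25. The files hold no detection calls, so a dim gene cannot be called absent. Levels of different probe sets are not comparable with each other, because each probe set binds with its own efficiency.

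The labels of the lines were checked against marker genes. All 5 adipocyte markers on the array were at least 2-fold higher in BMSC-Adipo (differences 4.05 to 9.10), and 5 of 7 osteoblast markers were at least 2-fold higher in BMSC-Osteo (-2.30 to -7.34). *Runx2*, an early osteoblast factor, differed by 0.28, and *Dmp1*, an osteocyte gene, by 1.35. Of 10 markers of blood and endothelial cells 5 passed the brightness filter. The macrophage gene *Cd68* (5.40 in BMSC-Adipo and 3.99 in BMSC-Osteo) was at least 2-fold apart, while *Csf1r* (5.73 and 6.05), *Cd3e* (5.30 and 5.21), *Cdh5* (4.17 and 4.47) and *Kdr* (5.71 on both) were not, although another *Csf1r* probe set differed by -1.30. *Ptprc*, *Itgam*, *Pecam1* and *Tek* lay below the filter. Of the smooth muscle genes, which stromal cells can also express, *Tagln* (-3.04) and *Cnn1* (-1.27) were at least 2-fold higher in BMSC-Osteo, *Acta2* differed by -0.26 and *Myh11* lay below the filter. Of 4 cartilage genes, *Comp* (1.58) was higher in BMSC-Adipo and the others lay between -0.52 and 0.44. The part of other cell types in the Wnt differences was not tested. *Apoe* lay below the filter, at 3.73 and 4.11.

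Each line had the higher level, by 2-fold or more, for 11 of the 54 brighter members, 20.4% on each side. Over all 14497 genes past the filter the shares were 7.88% toward BMSC-Adipo and 6.68% toward BMSC-Osteo. In either direction, 22 members (40.7%) passed the 2-fold rule against 14.6% of all genes. At 4-fold the count was 10 members (18.5%) against 4.26%, and at 16-fold it was 6 members (11.1%) against 0.793%. The members as a whole had no common direction, with a median difference of -0.08 beside -0.03 over all genes. Their median absolute difference of 0.64 was larger than that of all genes, 0.34. Counted by probe set without any filter, 23 of 130 (17.7%) were at least 2-fold higher in BMSC-Adipo and 16 (12.3%) in BMSC-Osteo, against 5.23% and 4.09% of all probe sets. These are descriptions of a single pair of arrays and carry no test.

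**Figure D1:**
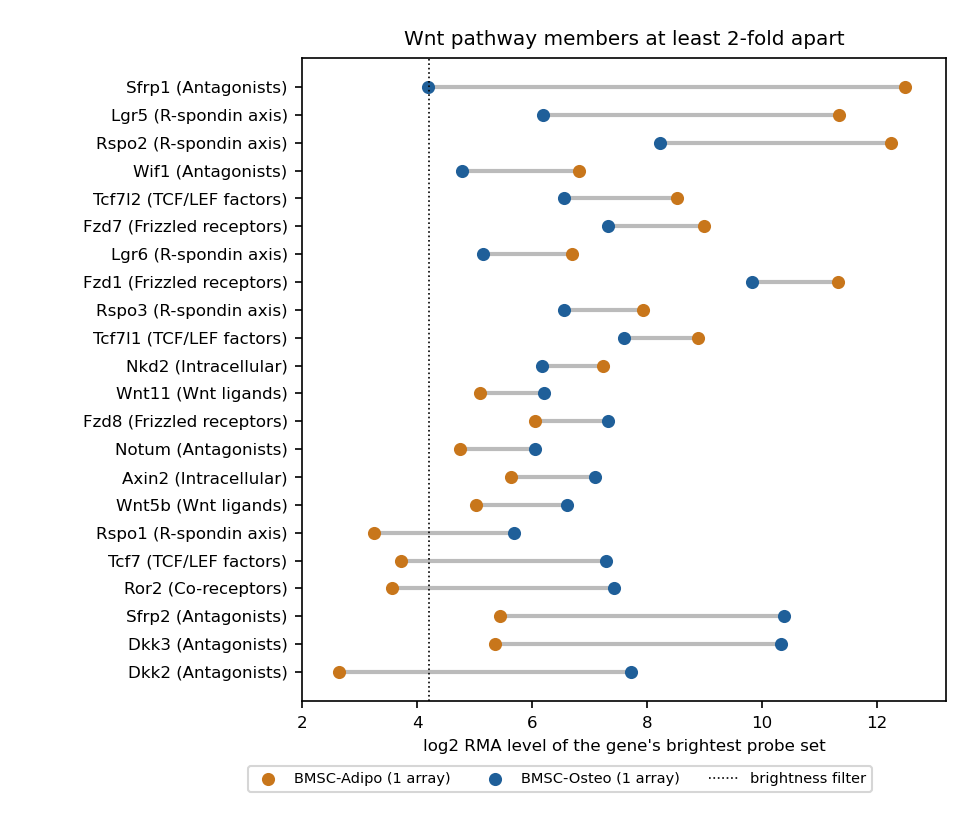
Log2 RMA level on the BMSC-Adipo array (orange) and the BMSC-Osteo array (blue) for the 22 Wnt members at least 2-fold apart, each shown by its brightest probe set and ordered by the difference, with the brightness filter as a dotted line. *Sfrp1* has the widest gap toward BMSC-Adipo (12.49 against 4.18), and *Dkk2*, *Dkk3* and *Sfrp2* have the widest gaps toward BMSC-Osteo.

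The secreted antagonists held 4 of the 5 largest differences of the members, and they pointed both ways. *Sfrp1*, which encodes a soluble protein with a Frizzled-like domain that binds Wnts, had a log2 level of 12.49 in BMSC-Adipo and 4.18 in BMSC-Osteo, a difference of 8.31 or 317-fold. Only 2 of the 14497 genes past the filter had a larger difference in absolute size. Its close relative *Sfrp2* ran the other way, with 5.45 in BMSC-Adipo and 10.39 in BMSC-Osteo (-4.95, 30.9-fold). Thus each line carried a bright signal for a different Sfrp gene. The remaining members of the family lay within 2-fold, with differences of 0.24 for *Frzb*, -0.24 for *Sfrp5* and -0.48 for *Sfrp4*.

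All 5 *Sfrp1* probe sets agreed in direction and differed in size. Beside the brightest, they had levels of 11.97 in BMSC-Adipo and 2.78 in BMSC-Osteo, 11.55 and 4.22, 11.18 and 5.36, and 9.10 and 6.00. In BMSC-Adipo all 5 lay between the 90.3rd and the 99.5th percentile of the array. The differences ranged from 3.09, for a probe set whose suffix marks possible binding of related transcripts, to 9.19 (585-fold). No *Sfrp1* probe set in BMSC-Osteo came within 3 log2 units of the same probe set in BMSC-Adipo.

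The Dickkopf genes were the counterpart in BMSC-Osteo. *Dkk2*, which encodes a ligand of Lrp5 and Lrp6, had levels of 2.65 in BMSC-Adipo and 7.72 in BMSC-Osteo (-5.07, 33.7-fold). *Dkk3*, a divergent family member whose action on Wnt signaling differs between cell types, was read by 2 probe sets, with levels of 5.36 and 5.21 in BMSC-Adipo against 10.33 and 10.10 in BMSC-Osteo. Its differences of -4.97 and -4.89 were nearly equal. *Dkk1*, the best known antagonist of bone formation in this family, and *Dkk4* were below the filter in the mean of both arrays. *Kremen1*, a receptor that cooperates with Dkk proteins, differed by -0.32.

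Other antagonists showed smaller gaps. *Wif1*, a secreted Wnt-binding protein, had levels of 6.82 in BMSC-Adipo and 4.79 in BMSC-Osteo (2.03, 4.08-fold). *Notum*, an enzyme that removes the lipid from Wnts, had 4.74 and 6.05 (-1.31). The osteocyte antagonist *Sost* was dim on both arrays, at 3.32 and 3.43. In all, 6 of the 10 antagonists past the filter (60%) were at least 2-fold apart, beside 14.6% of all genes. *Sfrp1* and *Wif1* were higher in BMSC-Adipo and *Sfrp2*, *Dkk2*, *Dkk3* and *Notum* in BMSC-Osteo. The median of the group, -0.40, hides this split, since its median absolute difference was 1.67.

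Some folds rest on a dim signal in the lower line, since *Sfrp1* in BMSC-Osteo and *Dkk2*, *Ror2*, *Tcf7* and *Rspo1* in BMSC-Adipo lay below the level used as the filter. These last 4 passed it through their level in BMSC-Osteo and were lost with a filter at the 50th percentile, as were *Notum* and *Wnt11*. With 32 units added to every linear level before the logarithm, which shrinks differences between dim values, the difference became 6.85 for *Sfrp1* and -2.67 for *Dkk2*, but -4.19 for *Sfrp2* and -4.18 for *Dkk3*. For *Notum* it became -0.74, under 2-fold.

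**Figure D2:**
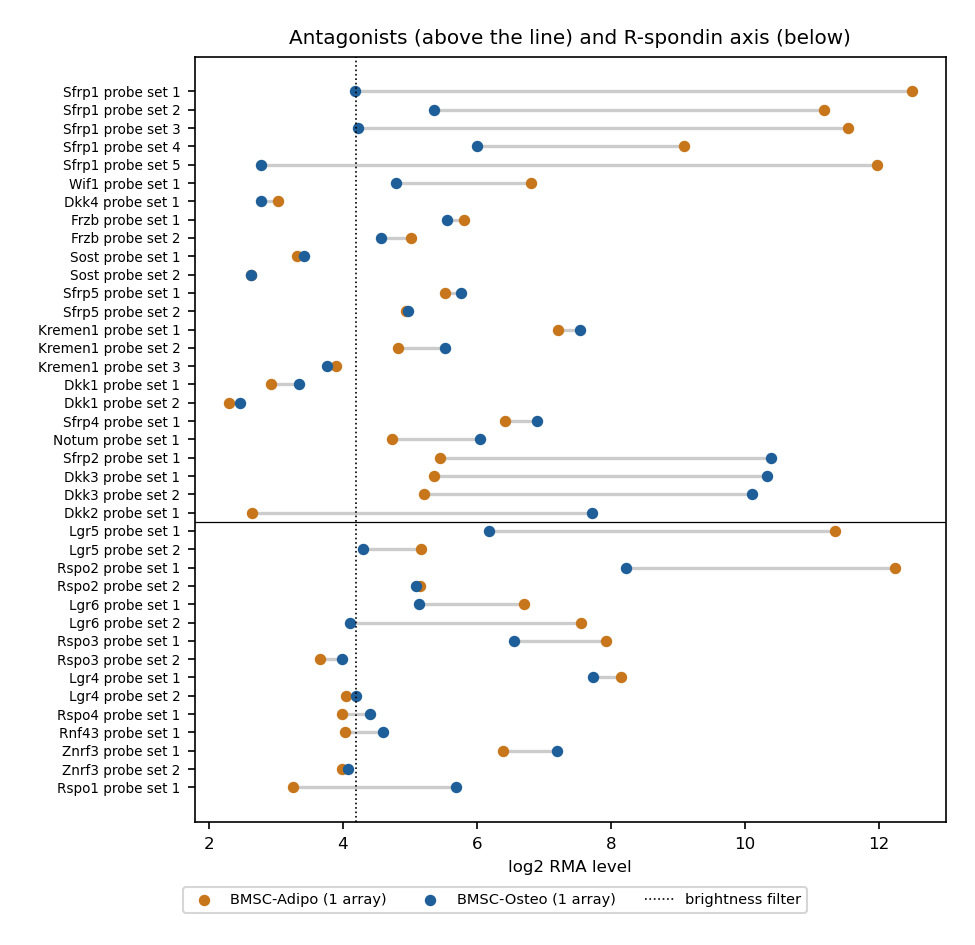
Log2 RMA level of every single-gene probe set of the antagonists (above the horizontal line) and of the R-spondins, Lgr receptors, *Znrf3* and *Rnf43* (below it), in BMSC-Adipo (orange) and BMSC-Osteo (blue), with genes ordered by difference and their probe sets by brightness. All 5 *Sfrp1* probe sets lie higher in BMSC-Adipo, whereas *Lgr5* and *Rspo2* each have a bright probe set with a wide gap and a dimmer one within 2-fold.

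The R-spondin axis leaned toward BMSC-Adipo by its brightest probe sets. Of 8 members past the filter, *Lgr5*, *Rspo2*, *Lgr6* and *Rspo3* (4 genes) passed the 2-fold rule on that side. *Rspo1* alone was at least 2-fold higher in BMSC-Osteo. These were 50% and 12.5%, beside 7.88% and 6.68% of all genes. *Lgr5*, a receptor for R-spondins and a stem cell marker of several epithelia, had levels of 11.35 in BMSC-Adipo and 6.18 in BMSC-Osteo (5.17, 35.9-fold). *Rspo2*, one of its ligands, had 12.24 and 8.23 (4.02, 16.2-fold), with the level in BMSC-Adipo at the 99.3rd percentile of the array. A ligand and a receptor of the same complex were thus both higher in the same line. Among the other R-spondins, *Rspo3* had levels of 7.93 and 6.55 (1.38) and *Rspo1* had 3.25 and 5.69 (-2.44, 5.43-fold). The level in BMSC-Adipo was below the filter, and with the offset of 32 the *Rspo1* difference became -1.01.

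Among the receptors, *Lgr6* had levels of 6.70 in BMSC-Adipo and 5.14 in BMSC-Osteo (1.55), and its second probe set had 7.56 and 4.10 (3.46). *Lgr4*, the most broadly expressed receptor of the family, differed by 0.42. The ubiquitin ligases that R-spondins oppose, *Znrf3* (-0.80) and *Rnf43* (-0.56), lay within 2-fold on the side of BMSC-Osteo. The median of the axis was 0.90. Values in this group depended on the probe set, since second probe sets of *Lgr5*, *Rspo2* and *Rspo3* differed by 0.87, 0.06 and -0.33. The antagonists cannot be compared with it in this respect, because *Sfrp2*, *Dkk2*, *Wif1* and *Notum* had a single probe set each. The second probe sets of *Lgr5*, *Rspo2* and *Rspo3* were dim. Their levels in BMSC-Adipo and BMSC-Osteo were 5.17 and 4.30 for *Lgr5*, 5.16 and 5.10 for *Rspo2*, and 3.67 and 3.996 for *Rspo3*. With the probe set of smallest absolute difference for each gene the median of the axis turned to -0.12. *Lgr5*, *Rspo2* and *Rspo3* then no longer passed the 2-fold rule.

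The Wnt ligands did not stand apart from all genes in the size of their differences. Of 13 past the filter, 2 (15.4%) were at least 2-fold apart, beside 14.6% of all genes, and their median absolute difference was 0.297 beside 0.34. Both of these ligands were higher in BMSC-Osteo. Of the 13, 10 had a negative difference, with a median of -0.25. *Wnt5b* had levels of 5.02 in BMSC-Adipo and 6.60 in BMSC-Osteo (-1.58, 2.99-fold), and its second probe set, of a kind that can bind related transcripts, had 4.24 and 6.17 (-1.93). *Wnt11*, like *Wnt5b* usually placed in the noncanonical branch, had 5.09 and 6.20 (-1.11, 2.16-fold). The call for *Wnt11* ended with the offset of 32 (-0.68).

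*Wnt5a*, the prototype of the noncanonical ligands, pointed the other way without passing the rule by its brightest probe set, with levels of 8.91 in BMSC-Adipo and 8.43 in BMSC-Osteo (0.47). Its other probe sets had 8.29 and 7.60 (0.69), 7.75 and 6.10 (1.66), and 3.94 and 3.79 (0.15), all higher in BMSC-Adipo. *Wnt10b* had 7.62 and 7.54, a difference of 0.08. *Wnt7b* (-0.77), *Wnt10a* (-0.76) and *Wnt4* (-0.58) were somewhat higher in BMSC-Osteo, and the other ligands past the filter differed by between -0.30 and 0.06. In the mouse genome some ligand genes lie next to each other. None of the neighboring pairs *Wnt6* and *Wnt10a*, *Wnt3a* and *Wnt9a*, *Wnt9b* and *Wnt3*, or *Wnt10b* and *Wnt1* held a gene past the 2-fold rule.

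Frizzled receptors showed moderate differences. *Fzd7* had levels of 8.99 in BMSC-Adipo and 7.32 in BMSC-Osteo (1.67, 3.19-fold), and *Fzd1* had 11.32 and 9.83 (1.49, 2.81-fold). *Fzd8* was the only Frizzled at least 2-fold higher in BMSC-Osteo, at 6.06 and 7.32 (-1.26, 2.40-fold). The *Fzd8* difference became -0.96 with the offset of 32. The second probe sets of *Fzd1* (8.77 and 7.44, 1.33) and *Fzd8* (3.34 and 4.49, -1.16) also passed the rule, while that of *Fzd7* (6.54 and 5.89, 0.65) did not. The other 7 Frizzleds lay between -0.51 (*Fzd3*) and 0.62 (*Fzd4*). The brightest *Fzd4* probe set had 6.35 and 5.73, although another had 6.75 and 5.17 (1.58) and a dim one 3.21 and 2.76 (0.45). All 10 Frizzled genes passed the filter, with a median of 0.29.

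Among the co-receptors, *Ror2* stood apart. This receptor tyrosine kinase, which binds Wnt5a, had levels of 3.57 in BMSC-Adipo and 7.43 in BMSC-Osteo (-3.86, 14.6-fold against a level below the filter in BMSC-Adipo, and -2.22 with the offset of 32). Its second probe set was dim on both arrays, at 3.81 and 4.05. *Ror1*, its paralog, had 3.96 and 4.48 in its brightest probe set (-0.52), 2.94 and 4.83 in another (-1.90), and 2.83 and 3.62 in the third (-0.79). The -1.90 thus rests on a level below the filter in BMSC-Adipo. The canonical co-receptors *Lrp5* (0.71) and *Lrp6* (0.65) were slightly higher in BMSC-Adipo, and a *Lrp6* probe set that the annotation shares with a second gene symbol differed by 0.92.

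**Figure D3:**
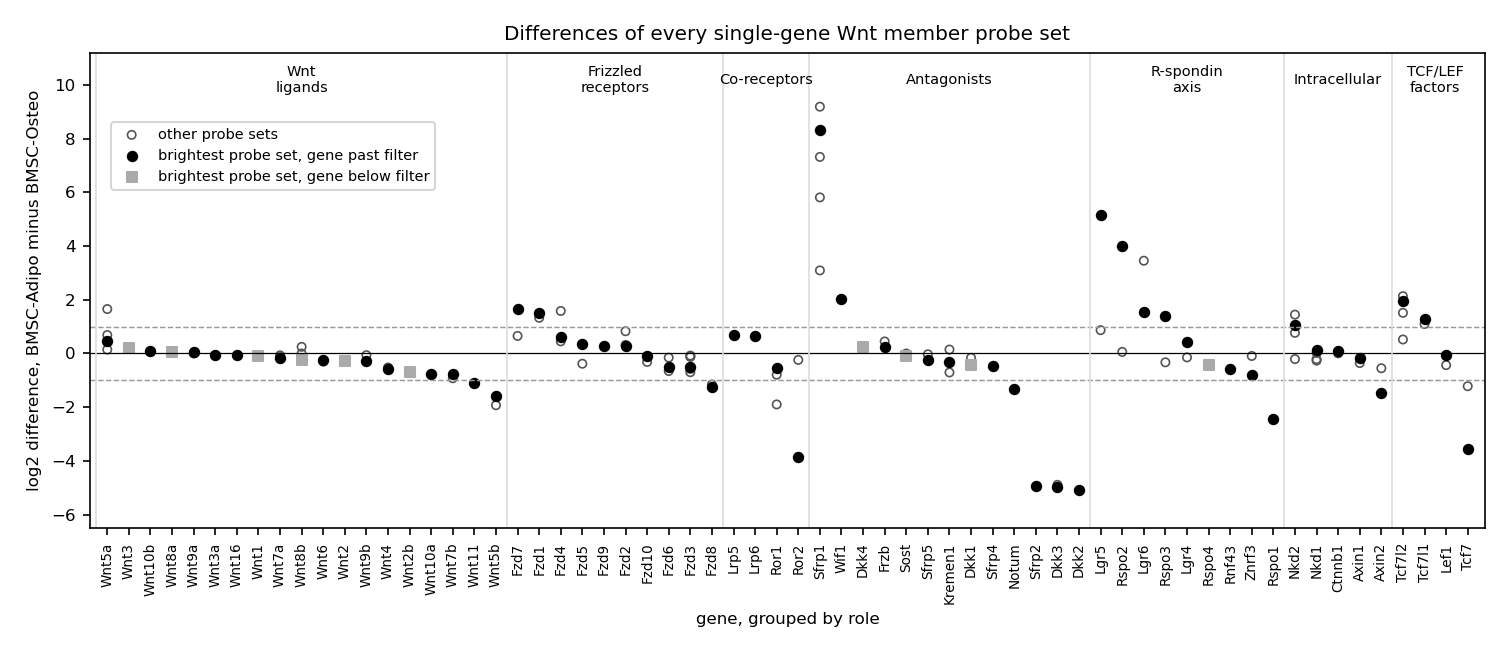
Log2 difference (BMSC-Adipo minus BMSC-Osteo) of every single-gene probe set of the 64 members, grouped by role, with filled circles for the brightest probe set of a gene past the filter, gray squares for genes below it and open circles for other probe sets. Dashed lines mark 2-fold, and most Wnt ligands and Frizzleds lie between them while *Sfrp1*, *Lgr5* and *Rspo2* rise to 4.02 or more and *Sfrp2*, *Dkk2* and *Dkk3* reach -4.95 or lower.

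Downstream of the receptors, the TCF/LEF transcription factors, paralogs of each other, differed in direction. *Tcf7*, which encodes TCF1, had levels of 3.71 in BMSC-Adipo and 7.28 in BMSC-Osteo (-3.57, 11.9-fold against a level below the filter in BMSC-Adipo, and -2.06 with the offset of 32), and its second probe set had 4.45 and 5.66 (-1.22). *Tcf7l2*, which encodes TCF4, was higher in BMSC-Adipo by its brightest probe set, with 8.53 against 6.56 (1.96, 3.90-fold), and its other probe sets had 7.31 and 5.17 (2.14), 7.20 and 5.69 (1.51), and 4.98 and 4.46 (0.52). *Tcf7l1*, which encodes TCF3, a member that mostly acts as a repressor, had 8.89 and 7.60 (1.29), with 8.76 and 7.66 (1.10) in its second probe set. *Lef1* differed by -0.05. So 3 of the 4 factors passed the 2-fold rule, beside 14.6% of all genes, and they did not share a direction.

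Beta-catenin itself was alike in both lines, since the 3 probe sets of *Ctnnb1* differed by 0.01, 0.07 and 0.10 at levels above 10. *Axin1*, a constitutive scaffold of the destruction complex, differed by -0.15. *Axin2*, its paralog and a widely used readout of canonical signaling, had levels of 5.64 in BMSC-Adipo and 7.09 in BMSC-Osteo (-1.46, 2.74-fold), with 3.56 and 4.11 (-0.55) in a dimmer probe set. *Nkd2*, an inhibitor that binds Dishevelled, had 7.23 and 6.17 (1.06), and its other probe sets had 7.09 and 5.64 (1.45), 6.99 and 6.22 (0.77), and 5.47 and 5.68 (-0.21). *Nkd1* differed by 0.14.

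Across the module, 42 genes had several single-gene probe sets, and in 7 of these the probe sets differed in sign. Of the 22 genes past the 2-fold rule, 20 had all probe sets on the same side of 0, the exceptions being *Nkd2* and *Rspo3*. In 14 of the 22 every probe set passed the rule. The other 8 were *Axin2*, *Fzd7*, *Lgr5*, *Nkd2*, *Ror2*, *Rspo2*, *Rspo3* and *Tcf7l2*. Both counts, 20 and 14, include *Sfrp2*, *Dkk2*, *Wif1*, *Notum*, *Rspo1* and *Wnt11*. Each of these had a single probe set and so could not show disagreement. For scale, probe sets that read 1 gene differed among themselves with a pooled SD of 0.399 over the whole array, a measure of probe effects, not of replicate error.

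Promoter sequence was examined for the letters that TCF/LEF factors bind. RefSeq promoters (build GRCm38.p6) could be matched by symbol for 43 of the 64 genes, 53 start sites in all, and the 250 bases before each start were searched on both strands for CTTTGA, the core of the TCF/LEF site. It occurred in 7 of the 53 member promoters, and in 13.8% of all 32851 promoters of the same length. The RUNX core TGTGGT was in 3 of them (14% of all promoters), and the C/EBP letters TTGCNNAA in 4 (9.56% of all). Matches of different motifs can overlap, since TTGCNNAA and TCAAAG, the reverse complement of CTTTGA, share letters. Of the members past the 2-fold rule, 7 genes higher in BMSC-Adipo and 8 higher in BMSC-Osteo had a matched promoter. *Sfrp1*, *Lgr5*, *Rspo2*, *Rspo3*, *Dkk3*, *Fzd8* and *Notum* had none and were not searched. Among those searched, only *Wnt5b*, *Wnt11* and *Fzd1* held the TCF/LEF letters. *Dkk1*, *Frzb*, *Lef1* and *Ror1*, none past the 2-fold rule by its brightest probe set, held them too. By gene, the letters were in 1 of 7 higher in BMSC-Adipo and 2 of 8 higher in BMSC-Osteo. They were also in 3 of 20 within 2-fold and 1 of 8 below the filter. The letters were thus not particular to the genes that differ. The windows of *Wnt5b*, *Wnt11* and *Fzd1* are shown as those of differing genes that hold them. Sequences run from 5′ to 3′ on the strand of the gene, and capitals mark the motif or its reverse complement.
Wnt5b, higher in BMSC-Osteo, chr6:119449387-119449636, minus strand: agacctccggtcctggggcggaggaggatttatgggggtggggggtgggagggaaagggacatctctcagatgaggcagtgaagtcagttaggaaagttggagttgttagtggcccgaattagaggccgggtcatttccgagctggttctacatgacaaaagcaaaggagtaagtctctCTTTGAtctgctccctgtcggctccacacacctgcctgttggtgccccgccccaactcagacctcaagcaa
Wnt11, higher in BMSC-Osteo, chr7:98834862-98835111, plus strand: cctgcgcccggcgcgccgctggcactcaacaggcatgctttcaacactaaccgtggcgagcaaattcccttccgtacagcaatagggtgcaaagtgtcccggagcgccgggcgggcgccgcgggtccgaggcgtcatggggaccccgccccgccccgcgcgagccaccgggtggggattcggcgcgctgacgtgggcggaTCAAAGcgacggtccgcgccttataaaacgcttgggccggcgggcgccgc
Fzd1, higher in BMSC-Adipo, chr5:4758217-4758466, minus strand: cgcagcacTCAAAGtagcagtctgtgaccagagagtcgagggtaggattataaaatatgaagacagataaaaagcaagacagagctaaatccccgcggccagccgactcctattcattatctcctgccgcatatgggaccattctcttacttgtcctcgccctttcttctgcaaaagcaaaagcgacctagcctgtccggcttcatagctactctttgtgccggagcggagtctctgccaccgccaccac
The match began 71 bases before the start in *Wnt5b*, 50 in *Wnt11* and 242 in *Fzd1*. It belongs to the most downstream of 3 *Wnt5b* starts and to the first of 2 *Wnt11* starts. The windows of *Axin2*, *Tcf7*, *Sfrp2*, *Dkk2*, *Ror2* and *Rspo1* held no such letters, which says nothing about sites elsewhere or about binding.

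Genes of the wider pathway were compared in the same way, beside the shares of all genes given above. Among 15 genes of Wnt secretion and surface modulation, 3 were at least 2-fold higher in BMSC-Osteo and 1 in BMSC-Adipo, with a median of -0.27. *Cthrc1*, a secreted protein that in mouse binds Wnt, Frizzled and Ror2, had levels of 3.72 in BMSC-Adipo and 10.92 in BMSC-Osteo (-7.20). It was read by a single probe set. *Cthrc1* and *Ror2* were both higher in BMSC-Osteo, and both lay below the filter level in BMSC-Adipo. *Apcdd1*, a membrane inhibitor of Wnt signaling, differed by -3.14 (-3.55 to -0.22 over its 6 probe sets) and *Lrp4*, which anchors sclerostin, by -1.49. *Igfbp4*, a binding protein of insulin-like growth factors that also restrains Wnt receptors, differed by 1.71.

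Of 27 genes of the transduction core, 4 were at least 2-fold higher in BMSC-Adipo and *Dvl1* (-1.51), a Dishevelled adaptor, was higher in BMSC-Osteo. The 4 were *Frat2* (1.65), a GSK3-binding protein, *Tnks* (1.31) and *Tnks2* (1.04), tankyrases that mark Axin for degradation, and the casein kinase *Csnk1g1* (1.25). Other probe sets of *Tnks*, *Csnk1g1* and *Tnks2* differed by as little as -0.066, 0.07 and 0.42. The list had a median of -0.06. Among 21 nuclear partners, the corepressors *Tle2* (2.61), *Tle4* (levels of 7.66 and 6.16) and *Tle6* (1.13) were at least 2-fold higher in BMSC-Adipo. *Ruvbl2* (-1.12) was higher in BMSC-Osteo, and the list had a median of -0.06. Another *Tle4* probe set differed by 0.38, and the remaining Tle genes lay within 2-fold. The shares of the transduction core and the nuclear partners toward BMSC-Adipo, 14.8% and 14.3%, stood beside 7.88% of all genes. With the mean over the probe sets of each gene the transduction core count dropped to 1 of 27, below the share of all genes (6.46%), whereas the nuclear partners kept a count of 3.

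Genes listed as beta-catenin targets leaned toward BMSC-Osteo. Of 24 past the filter, 9 (37.5%) passed the 2-fold rule on that side and 2 toward BMSC-Adipo, beside 6.68% and 7.88% of all genes. There were 18 negative differences and a median of -0.55. The largest toward BMSC-Osteo were *Bambi* (-4.10), a pseudoreceptor of the BMP and TGF-beta family, and *Nrcam* (-3.52), a cell adhesion molecule. *Wisp1* (-2.84), a matricellular protein, followed. Levels in BMSC-Adipo and BMSC-Osteo were 4.12 and 8.22 for *Bambi* and 3.56 and 7.08 for *Nrcam*. Both genes were thus below the filter level in BMSC-Adipo and passed it through BMSC-Osteo. Over its 4 probe sets *Nrcam* ranged from -3.52 to -0.04. *Fst* (3.94), the activin antagonist follistatin, and *Id2* (2.21), an inhibitor of helix-loop-helix transcription factors, were higher in BMSC-Adipo, although another *Id2* probe set differed by 0.16. Many of these genes answer to other pathways as well, so the list is not a readout of Wnt activity alone. In the planar polarity and calcium branch, 2 of 32 genes passed on each side, *Prickle2* (1.94) and *Prkca* (1.40) toward BMSC-Adipo and *Plcb4* (-3.03) and *Nfatc1* (-1.35) toward BMSC-Osteo. Other probe sets of *Plcb4*, *Prkca* and *Nfatc1* differed by as little as 0.00, -0.32 and -0.14. This branch, with 6.25% on each side and a median of -0.07, did not exceed the shares of all genes.

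**Figure D4:**
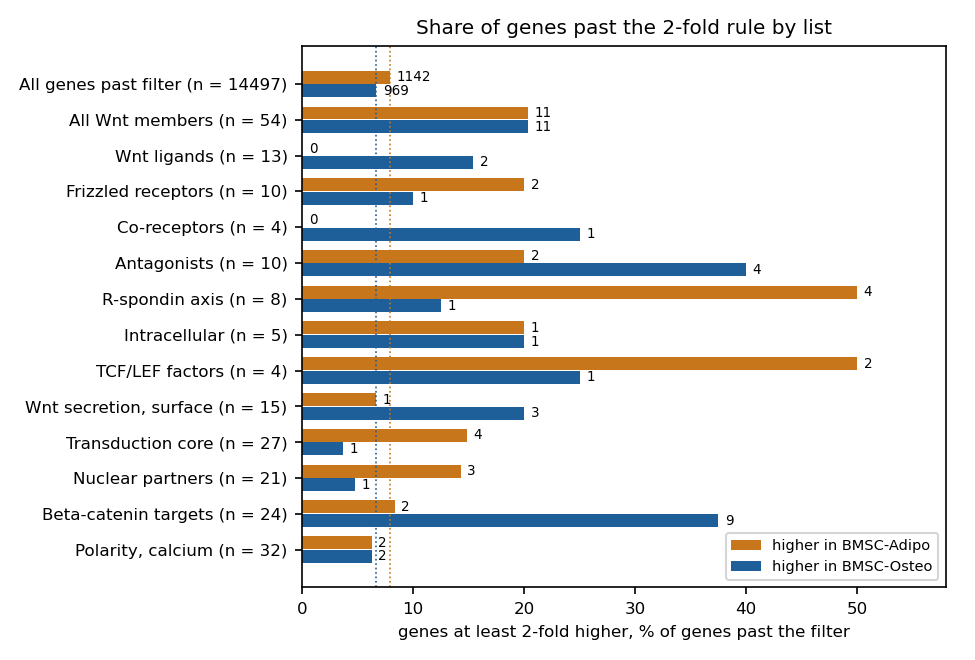
Percent of sufficiently bright genes whose level was at least 2-fold higher in BMSC-Adipo (orange) or in BMSC-Osteo (blue), for all genes, the Wnt members, their 7 roles and 5 lists of other pathway genes, with counts beside the bars and dotted lines at the shares of all genes. The antagonists (2 and 4 of 10), the R-spondin axis (4 and 1 of 8) and the Frizzleds (2 and 1 of 10) exceed the dotted lines on both sides. So do the intracellular members (1 and 1 of 5), the TCF/LEF factors (2 and 1 of 4) and the beta-catenin targets (2 and 9 of 24). Several of these rest on 1 gene on a side. The polarity and calcium genes exceed neither line.

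The gene ontology terms in the deposited table, which the choice of members did not use, mark genes as negative or positive regulators. A gene can carry both marks, so the terms do not separate genes cleanly by direction of action. These terms were picked after the values were seen. Of 22 members past the filter that are annotated as negative regulators of canonical Wnt signaling, 8 were at least 2-fold higher in BMSC-Osteo and 3 in BMSC-Adipo, with a median of -0.49. These are 36.4% and 13.6%, beside 20.4% on each side for all members and 6.68% and 7.88% of all genes. The 63 other genes with this annotation had 4 toward BMSC-Osteo (6.35%) and 8 toward BMSC-Adipo (12.7%), and a median of -0.07. Their share toward BMSC-Osteo thus did not exceed that of all genes. Of 16 members annotated as positive regulators, 4 (25%) passed the 2-fold rule on each side, beside the same shares of all genes, with a median of 0.01. *Sfrp1*, *Sfrp2*, *Dkk2* and *Ror2* are among the members that carry both annotations, as are *Sfrp4* and *Wnt4*, and enter both counts.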

How the data were processed

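RNA of BMSC-Adipo and BMSC-Osteo (1 array each, a pool of 3 cultures, 8 ug of RNA) was compared. The authors deposited log2 levels per probe set made by RMA with oligo, per the labels; for version, settings and genome build, the sources used here give nothing. The deposited fold change column holds the authors' comparison and was not used. Control probe sets (64), probe sets without a gene (5368) and those naming several genes (1479) were left out of gene values, which left 38190. All 64 members matched RefSeq by Entrez ID. The lists and the symbol rule for members were set with earlier results of these data known. Every member at least 2-fold apart in a probe set was named, and of each other pathway list the 4 largest differences past 2-fold; *Tnks2* and *Id2*, outside this rule, were named after their values were seen. With 1 array a line no test was possible, and precision is limited by how few arrays there are. Alternatives covered probe set choice, filter, normalization, series matrix, an offset and the size rule, and, chosen after seeing the data, leaving out probe sets with _x_at or _s_at names. A gene or median counted as moved beyond 0.399, the pooled SD between probe sets, and a count beyond 1.5 times. The steps were tested on simulated data, with planted differences well past the 2-fold rule and larger background differences removed. That checks the computation only, not how far calls in the real data can be trusted. Python 3.11.15, numpy 2.4.6, pandas 2.3.3, statsmodels 0.14.6 and matplotlib 3.10.9 were used.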

Additional observations from a re-analysis of the deposited data

How the results depend on the processing

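Subtracting the median difference or a loess curve, or using the series matrix (largest gap 0), left all 22 members past the 2-fold rule. Leaving out probe sets with _x_at or _s_at names, an alternative chosen after seeing the data, also kept the 22. Averaging all probe sets of each gene, 20 of the 22 remained, without *Nkd2* and *Rspo3*. With the probe set of smallest absolute difference 14 remained, without *Axin2*, *Fzd7*, *Lgr5*, *Nkd2*, *Ror2*, *Rspo2*, *Rspo3* and *Tcf7l2*. With a filter at the 50th percentile 16 remained, without *Dkk2*, *Notum*, *Ror2*, *Rspo1*, *Tcf7* and *Wnt11*, and with an offset of 32 it was 18, without *Fzd8*, *Nkd2*, *Notum* and *Wnt11*. The count toward BMSC-Adipo was 5 of 54 with the smallest differences and 4 of 54 at 4-fold, beside 5.06% and 2.27% of all genes. Toward BMSC-Osteo it was 5 of 36 with the 50th percentile filter and 6 of 54 at 4-fold, beside 7.06% and 1.99% of all genes.

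The co-receptor median was -0.62 with the largest differences and 0.65 with the 50th percentile filter. The R-spondin axis had 0.33 with probe set means, -0.12 with the smallest differences, 1.47 with the 50th percentile filter and 0.42 both without a filter and without _x_at and _s_at probe sets, where *Rspo4* passed in the latter. The TCF/LEF median was 1.29 with the 50th percentile filter. The median of all members turned to 0.12 with that filter, that of the Frizzleds to -0.01 with the largest differences, and that of the intracellular members to -0.08, -0.26 and -0.15 with the mean, largest and smallest.

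Counts of the other lists were small. They are out of 15 secretion and surface, 27 transduction core, 21 nuclear partner, 24 beta-catenin target and 32 polarity and calcium genes. Of all genes, the shares toward BMSC-Adipo were 6.46% with the mean, 9.75% with the largest and 5.06% with the smallest differences. They were 16.1% at 1.5-fold and 2.27% at 4-fold. Toward BMSC-Osteo they were 8.12% with the largest, 4.28% with the smallest, 14.5% at 1.5-fold and 1.99% at 4-fold. Toward BMSC-Adipo, secretion and surface genes numbered 2 with the largest differences, 3 at 1.5-fold and 0 at 4-fold. Transduction core genes numbered 1 with the mean and with the smallest, and 0 at 4-fold. Nuclear partners numbered 1 at 4-fold. Beta-catenin targets numbered 1 with the smallest and 4 at 1.5-fold. Polarity and calcium genes numbered 1 with the mean and with the smallest, 4 with the largest, 5 at 1.5-fold and 0 at 4-fold. Toward BMSC-Osteo, transduction core genes numbered 2 with the largest, 7 at 1.5-fold and 0 at 4-fold, nuclear partners 4 and 0 at these rules, and polarity and calcium genes 0 with the smallest, 6 at 1.5-fold and 1 at 4-fold. With the smallest differences *Nkd2* (-0.21), *Rspo3* (-0.33) and *Tnks* (-0.066) changed sign. Of 592 recomputed gene differences, 71 moved and these 3 reversed. The causes were not tested. No paired analysis was possible because each line has 1 array.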

Other observations

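Many probe sets shared their difference with another probe set to the sixth decimal place. Among all 45101 probe sets there were 23515 distinct differences, and 25748 probe sets (57.1%) had a difference that occurred more than once. Of the 130 Wnt member probe sets, 61 (46.9%) did so, and 3 had equal values on both arrays, as did 2096 (4.65%) of all probe sets. Of the 39 member probe sets at least 2-fold apart, 3 shared their difference with another probe set. The origin of these repeated values was not tested.

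Next to the ligand pairs described above, *Kremen1* and *Znrf3* are also neighboring protein-coding genes, on chromosome 11, and differed by -0.32 and -0.80, both within 2-fold. *Kremen1* acts with Dkk proteins against Lrp6, and *Znrf3* removes Frizzleds from the cell surface.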
